A study of Mus musculus with 6 samples.

Results

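The transcripts of cholesterol synthesis and its control by sterol regulatory element-binding proteins (SREBPs) were examined in mouse optic nerve after crush of the nerve (ON-CR) or sham surgery, in the genotype NF1flox/flox;hGFAP-Cre. The set holds 28 of the 25755 genes measured. It comprises 20 enzymes in the order of the mevalonate and sterol pathway, 7 genes of SREBP control and the sterol carrier Stard4, chosen by gene symbol. The pathway was singled out because its genes were lower after ON-CR in an earlier analysis of these same libraries, so the differences between the groups are given as a description and were not tested as a hypothesis. All 28 genes had a value in the table and none was removed by a filter. RNA of whole optic nerves was sequenced in bulk from 3 sham mice (mice 1 to 3) and 3 ON-CR mice (mice 4 to 6). Surgery was performed at 6 weeks of age and nerves were taken at 12 weeks, which the sample labels give as 3 months. All 6 mice carry floxed Nf1 alleles and a Cre transgene under a human GFAP promoter, so Nf1 is inactivated in neuroglial progenitors and their descendants in both groups, and mice without this deletion were not analysed here.

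Cholesterol cannot be taken up by the central nervous system from the blood in useful amounts and is made locally, and myelin is its largest store. Oligodendrocytes that build myelin, and astrocytes, express the enzymes of the mevalonate pathway. These enzymes condense acetyl-CoA into isoprenoid units, join them into squalene, close it into the first sterol, lanosterol, and trim lanosterol to cholesterol. SREBP2 drives most of these genes. It is held in the endoplasmic reticulum by SCAP and the INSIG proteins when sterols are plentiful, and is released by the site-1 and site-2 proteases in the Golgi when they are scarce.

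The libraries held 17414091 to 23621006 estimated reads on genes, and each ON-CR library was shallower than each sham library. Nf1 transcripts were at normalized values of 343 to 447 in sham mice and 380.04 to 438 in ON-CR mice, in bulk tissue that includes cells without Cre. Transcripts linked to sex were not balanced. Xist was at 2.14 to 30.9 in sham mice and 2708 to 6357 in ON-CR mice, and the Y-linked gene Ddx3y at 1291 to 1645 in sham mice but at 976, 4.19 and 0 in ON-CR mice 4, 5 and 6. The labels name 1 mouse for each library, but ON-CR library 4 held both Xist and Ddx3y. The study pooled mice for its PCR samples, and whether a library here holds RNA of more than 1 mouse is not given in the sources used here. Sex and surgery cannot be told apart for any gene described here. ON-CR mouse 6 stood apart by B and plasma cell transcripts, whose 4 markers summed to 97714 against 119 to 2064 in the other libraries. Of the 14 markers of mature oligodendrocytes, all had a value in every library, and none of the 8 astrocyte or 8 microglial markers was at 0.

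The enzymes of cholesterol synthesis were lower in the nerves of ON-CR mice at nearly every step of the pathway. The log2 difference between the groups (ON-CR minus sham, on log2 of value + 1) had a median of -0.96 over the 20 enzymes and -0.85 over all 28 genes, beside 0.03 over all genes measured. Of the 28 genes, 25 had a lower and 3 a higher mean log2 value after ON-CR. In a limma fit over the whole table, 14 of the 28 had an adjusted p at or under 0.05 and a lower value, where 1.13% of all genes did so, and 0 had a higher value, where 0.971% of all genes did so (2.1% in either direction). At an unadjusted p at or under 0.05 the counts by limma were 21 lower and 0 higher, beside 8.22% and 7.37% of all genes. Sham and ON-CR values did not overlap for 22 genes, all lower after ON-CR, beside 11% of all genes that were lower without overlap and 10.5% that were higher. A log2 difference at or under -0.5 was found in 17 of the 28, beside 12.4% of all genes, and one at or under -1 in 9, beside 3.77%. Since this contrast chose the pathway, nothing is read from these counts. Over all genes the fit called 290 lower and 250 higher, which became 195 lower and 421 higher when libraries were scaled by their totals alone. That scaling moved the median of all genes to 0.15 and left 14 of the 28 genes called. Without ON-CR mouse 6 the counts over all genes were 28 lower and 39 higher, and without limma's trend option 2 and 5, with 0 of the 28 genes called. In bulk nerve, fewer cells of a type and less RNA per cell cannot be told apart.

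**Figure D1:**
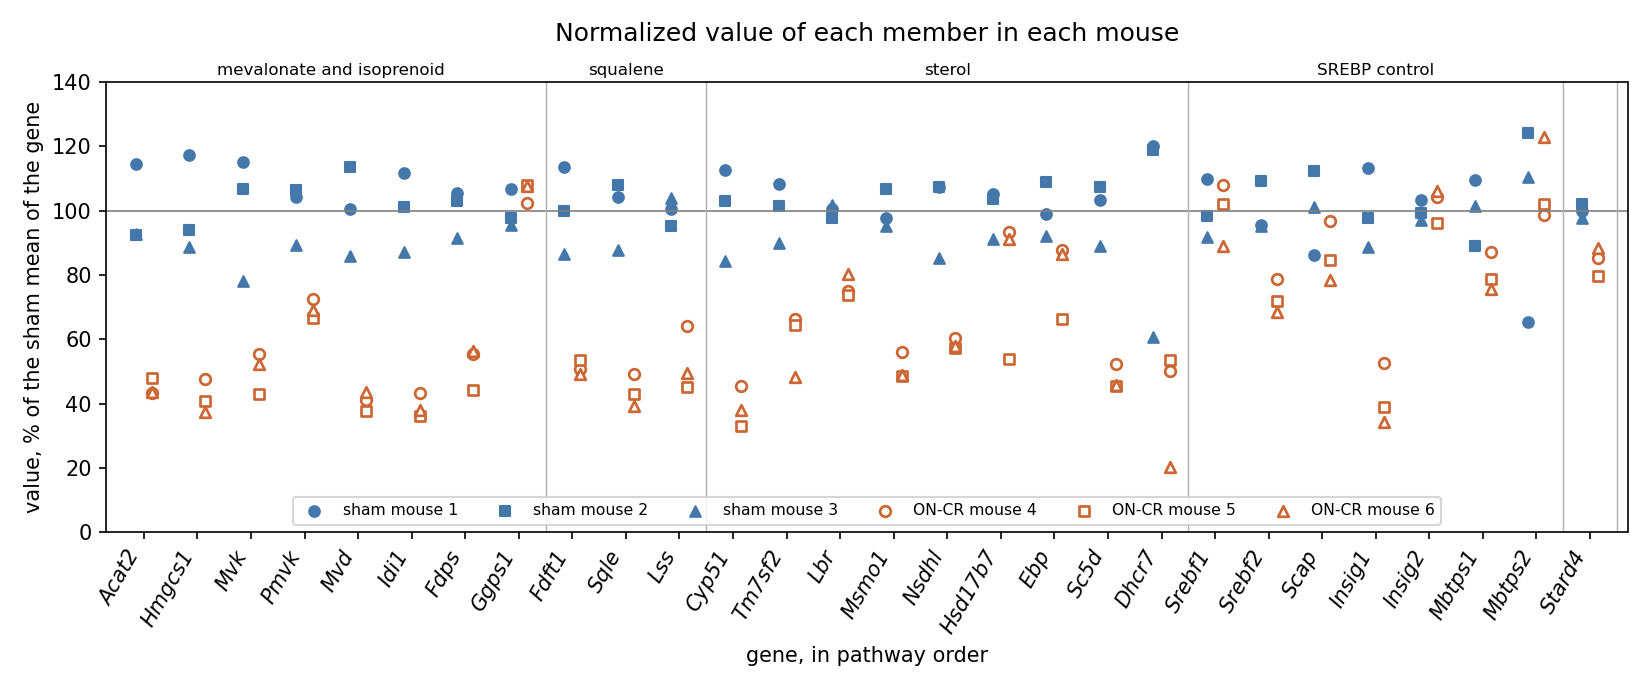
Normalized value of each of the 28 genes in each mouse, as a percentage of the sham mean of that gene (vertical axis), with genes in pathway order (horizontal axis). Filled symbols are sham mice 1 to 3 and open symbols ON-CR mice 4 to 6; for Hmgcs1, Idi1 and Cyp51 the open symbols lie far under the filled ones, whereas for Ggps1, Srebf1 and Insig2 they are mixed.

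The mevalonate steps were lower from the first enzyme onward. Acat2, the cytosolic thiolase that joins acetyl-CoA units, stood at a normalized value of 3631 in sham mouse 1, 2931 in mouse 2 and 2938 in mouse 3, and at 1368, 1519 and 1382 in ON-CR mice 4, 5 and 6. Hmgcs1, which makes HMG-CoA, had the highest sham level of the 28 genes per kilobase of exon (2549) and stood at 13750, 10999 and 10380 in sham mice and at 5574, 4774 and 4376.5 in ON-CR mice. For both genes the highest ON-CR mouse lay far under the lowest sham mouse, at 51.8% of it for Acat2 and 53.7% for Hmgcs1. The log2 difference was -1.15 (standard error 0.12) for Acat2. That of Hmgcs1 was -1.25 (standard error 0.14), a fall of the mean from 11710 ± 1794 to 4908 ± 610 (SD, n = 3 each).

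Mevalonate is then phosphorylated and decarboxylated. Mvk, the first kinase, was at 1260 in sham mouse 1, 1169 in mouse 2 and 854 in mouse 3, and at 607, 470 and 573 in ON-CR mice, with sham mouse 3 nearest to the ON-CR mice. Pmvk, the next kinase, was less changed, with 1361.5, 1390 and 1170.2 in sham mice against 950.2, 872 and 904 in ON-CR mice, a log2 difference of -0.52 (standard error 0.12) that did not pass the threshold. Mvd, the decarboxylase, differed more. It was at 918, 1035 and 782 in sham mice and at 375, 345 and 397 in ON-CR mice, a log2 difference of -1.28 (standard error 0.14). Its ON-CR mean was 40.8% of the sham mean, that of Mvk 50.3% and that of Pmvk 69.5%.

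The isoprenoid units are then isomerized and joined. Idi1, the isomerase, was at 2494, 2257 and 1944 in sham mice and at 965, 806 and 850.4 in ON-CR mice. Its groups were the furthest apart of the 28 genes by the share of the lowest sham value that the highest ON-CR value reached, 49.7%, and its log2 difference was -1.35 (standard error 0.13). Fdps, which makes farnesyl diphosphate, was at 3346.5, 3265 and 2903 in sham mice and at 1763, 1406 and 1791 in ON-CR mice, a log2 difference of -0.95 (standard error 0.13). The gene Gm43738 shares 26.7% of the exon length of Fdps on the same strand, so its reads may be mixed with those of Fdps. Ggps1, which adds a further unit to make geranylgeranyl diphosphate for protein prenylation and leaves the route to sterols, behaved unlike its neighbours. Its values ran from 895 to 1002 in sham mice and from 961 to 1014 in ON-CR mice, overlapping, with a log2 difference of 0.09 and a 95% interval from -0.16 to 0.33.

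The 3 enzymes that make and close squalene were called lower with all mice, beside 1.13% of all genes. The call of Lss was lost without any 1 of the sham mice. Fdft1, squalene synthase and the first step committed to sterols, was at 3412, 2999 and 2595 in sham mice and at 1529, 1606 and 1482 in ON-CR mice. Within each library, Fdft1 was 2.9 to 3.41 times as abundant as Ggps1 in sham mice and 1.47 to 1.59 times in ON-CR mice. These ranges did not overlap, as follows from the values of each gene. Other pairs compared this way were mixed. The ratios of Dhcr7 to Sc5d, Hsd17b7 to Nsdhl and Idi1 to Mvd overlapped. That of Fdps to Ggps1 was lower after ON-CR and that of Lbr to Tm7sf2 higher, both without overlap. The cathepsin gene Ctsb overlaps 18.3% of the exon length of Fdft1 on the other strand, and whether the counting used strand is not given in the sources used here. Sqle, squalene monooxygenase, stood at 3106, 3219 and 2622 in sham mice and at 1469.7, 1279 and 1169 in ON-CR mice, a log2 difference of -1.19 (standard error 0.13). Lss, which closes the rings of lanosterol, was at 917, 869 and 949 in sham mice and at 585, 413 and 452 in ON-CR mice. Its sham mice lay close together (coefficient of variation 4.41%) and its ON-CR mice less so (18.7%), with mouse 4 the highest.

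Of the 9 enzymes that turn lanosterol into cholesterol, 4 were called lower and 8 were lower without overlap, beside 1.13% and 11% of all genes. Cyp51, the lanosterol 14-alpha-demethylase, had the lowest log2 difference of all 28 genes, -1.36 (standard error 0.15). It was at 3745, 3420 and 2799.5 in sham mice and at 1508, 1098 and 1266 in ON-CR mice, so that the highest ON-CR value was 53.9% of the lowest sham value. The next reduction can be done by either of a pair of enzymes, and these differed less. Tm7sf2 was at 337, 315 and 279.7 in sham mice and at 206, 200.1 and 151 in ON-CR mice. Lbr, which is also a receptor for lamin B in the nuclear envelope, was at 645, 628 and 655 in sham mice and at 482, 475 and 517 in ON-CR mice. Neither passed the threshold, although their groups did not overlap.

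The C4 demethylation complex was uneven. Msmo1, its oxidase, was at 4428, 4833 and 4309.8 in sham mice and at 2541, 2206 and 2213 in ON-CR mice, a log2 difference of -0.96 (standard error 0.11). Nsdhl, its decarboxylase, was at 1186, 1186 and 943 in sham mice and at 668, 635 and 639.6 in ON-CR mice, a log2 difference of -0.76 (standard error 0.13). Both were called lower. Hsd17b7, its ketoreductase, was at 698 to 805 in sham mice and at 715, 413 and 699 in ON-CR mice 4, 5 and 6. Only ON-CR mouse 5 was under the sham range, and the 95% interval of the log2 difference ran from -0.82 to 0.08.

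The last steps ended with the noisiest gene of the set. Ebp, the delta8-delta7 isomerase, was at 1292.5, 1422 and 1203 in sham mice and at 1148, 866 and 1129 in ON-CR mice, without overlap, although the highest ON-CR value reached 95.4% of the lowest sham value. Sc5d, the C5 desaturase, was at 4324, 4497 and 3730.2 in sham mice and at 2194, 1910 and 1915 in ON-CR mice, and was called lower with a log2 difference of -1.06 (standard error 0.12). Dhcr7, which makes cholesterol from 7-dehydrocholesterol, was at 2441, 2418 and 1235 in sham mice and at 1021, 1086 and 413 in ON-CR mice. Its difference of -1.33 was among the lowest, but the standard error was 0.36, since sham mouse 3 lay near ON-CR mice 4 and 5 and ON-CR mouse 6 lay far under them. It did not pass the threshold with all mice, and did so only without ON-CR mouse 5 among the settings tried. Nsdhl, Ebp and Mbtps2 lie on the X chromosome, and an effect of sex on them was not tested.

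**Figure D2:**
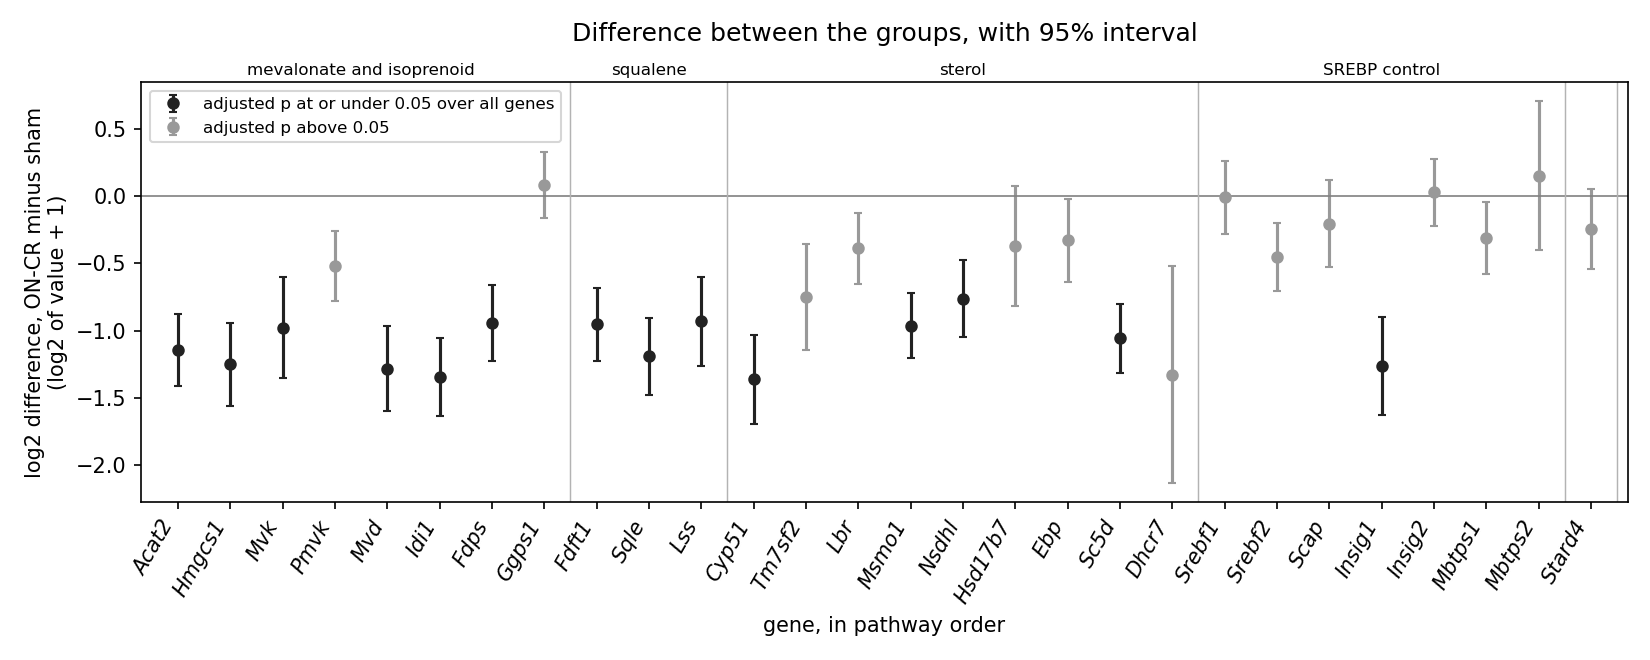
Log2 difference between ON-CR and sham mice (vertical axis, log2 of value + 1) for each gene in pathway order (horizontal axis), with 95% intervals from the limma fit over all genes. Black points are the 14 genes called lower and grey points the other 14; among the control genes Insig1 is the black point, at -1.27, and the intervals of Srebf1, Scap, Insig2 and Mbtps2 include 0.

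Other exon overlaps touch both called genes and genes not called. On the other strand, Gm48342 covers 12.1% of the exon length of Hmgcs1, Gm48574 9.22% of Idi1, Akap9 3.76% of Cyp51 and 4930483K19Rik 3.53% of Lss. Among the genes not called, 5830462I19Rik covers 13.2% of Scap, Dnah14 9.24% of Lbr, Arid4b 5.44% of Ggps1 and Rai1 1.93% of Srebf1. On the same strand, Vps51 shares 12.1% of Tm7sf2, Gm26004 1.45% of Lbr and Mir6922 1.17% of Srebf1. Reads in these stretches could not be separated.

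The start-proximal sequences of these genes were read from RefSeq (GRCm38.p6), where 24 of the 28 genes matched, with Fdps, Fdft1, Sqle and Stard4 not matched. In the 250 bases before each start site, on both strands, the letters TCACNCCA of a sterol regulatory element were found in Hmgcs1, Msmo1 and Srebf2, that is in 3 of 24 genes beside 4.2% of all 27025 genes with such a sequence. A longer form, TCACNCCAC, had been searched first and was found in 1 gene, Hmgcs1, beside 1.22% of all genes, and the shorter form was added afterwards. The letters CCAAT, bound by the SREBP partner NF-Y, were found in 20 of 24 genes, beside 37.5% of all genes and 40.7% of genes with a mean value of at least 100. They were present in 10 of the 11 called genes with a sequence and in 10 of the other 13. The GC box GGGCGG was found in 21 of 24, beside 35.4% of all genes and 64.4% of those with a mean value of at least 100. The E box CACGTG was found in 5, beside 6.86% of all genes. The sequences of the 3 genes with the sterol element are shown with that of Cyp51, the gene with the lowest difference, because they show the elements side by side. Capitals mark TCACNCCA and CCAAT or their reverse complements.
Hmgcs1 (chr13:119690101-119690350, plus strand): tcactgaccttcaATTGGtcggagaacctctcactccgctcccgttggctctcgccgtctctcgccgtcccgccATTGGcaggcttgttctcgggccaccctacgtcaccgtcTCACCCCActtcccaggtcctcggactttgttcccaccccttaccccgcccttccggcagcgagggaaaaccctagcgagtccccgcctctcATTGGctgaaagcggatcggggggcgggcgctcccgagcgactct
Msmo1 (chr8:64733579-64733828, minus strand): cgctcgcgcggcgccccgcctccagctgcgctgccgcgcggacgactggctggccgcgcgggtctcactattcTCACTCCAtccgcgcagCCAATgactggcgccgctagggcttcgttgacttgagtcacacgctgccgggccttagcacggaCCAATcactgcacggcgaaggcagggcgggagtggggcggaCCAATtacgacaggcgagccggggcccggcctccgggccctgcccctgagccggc
Srebf2 (chr15:82147019-82147268, plus strand): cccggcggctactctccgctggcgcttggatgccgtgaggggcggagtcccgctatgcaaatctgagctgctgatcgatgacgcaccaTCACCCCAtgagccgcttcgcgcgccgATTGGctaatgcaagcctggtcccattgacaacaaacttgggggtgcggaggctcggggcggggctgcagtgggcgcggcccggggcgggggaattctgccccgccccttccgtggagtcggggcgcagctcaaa
Cyp51 (chr5:4104698-4104947, minus strand): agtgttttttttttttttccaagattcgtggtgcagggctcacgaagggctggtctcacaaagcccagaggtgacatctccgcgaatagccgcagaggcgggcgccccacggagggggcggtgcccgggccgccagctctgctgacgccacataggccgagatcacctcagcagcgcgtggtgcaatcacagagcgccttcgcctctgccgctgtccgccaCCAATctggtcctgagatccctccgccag
In Hmgcs1 the sterol element lay 130 to 137 bases before the start site and the nearest CCAAT box at 172 to 176. In Msmo1 the element lay at 170 to 177 and a CCAAT box followed at 156 to 160. In Srebf2 the element lay at 155 to 162, with a CCAAT box at 131 to 135. Within this 250-base window Cyp51 held a CCAAT box and not the 8 letters searched, which says nothing of other sequences or of binding.

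Of the 7 genes that control SREBP, 1 was called lower and 3 were lower without overlap, beside 1.13% and 11% of all genes. The median log2 difference of the 7 was -0.20. Insig1, a retention protein that SREBP itself induces, was at 3128, 2703 and 2453 in sham mice and at 1458, 1078 and 949 in ON-CR mice. Its ON-CR mean was 42.1% of the sham mean, and it was the called gene among the 7, with a log2 difference of -1.27 (standard error 0.16). Insig2, the related retention protein, was at 877, 843 and 825 in sham mice and at 883, 817 and 899 in ON-CR mice. These groups overlapped and the 95% interval of the log2 difference ran from -0.22 to 0.28. The ratio of Insig1 to Insig2 within a library was 3.57, 3.21 and 2.97 in sham mice and 1.65, 1.32 and 1.06 in ON-CR mice.

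The transcription factors themselves were not called. Srebf2, which encodes SREBP2, was at 1889, 2163 and 1881 in sham mice and at 1560.4, 1420.5 and 1357 in ON-CR mice. The ON-CR mean was 73.1% of the sham mean and the groups did not overlap, but the log2 difference of -0.45 (standard error 0.11) did not pass the threshold. Srebf1, which encodes the SREBP1 forms that act mainly on fatty acid genes, was at 1671, 1494 and 1396 in sham mice and at 1640.2, 1550.5 and 1356 in ON-CR mice. Its log2 difference was 0.00 with a 95% interval from -0.28 to 0.27, and the sign of that small difference changed with the scaling. The ratio of Srebf2 to Srebf1 ran from 1.13 to 1.45 in sham mice and from 0.916 to 1.00 in ON-CR mice.

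The escort and the proteases showed small differences. Scap, the escort, was at 588, 766 and 690.2 in sham mice and at 659, 578 and 536 in ON-CR mice, with overlap. Mbtps1, the site-1 protease, was at 1685, 1369 and 1565 in sham mice and at 1340.1, 1212 and 1167 in ON-CR mice, where the highest ON-CR value reached 97.9% of the lowest sham value. Mbtps2, the site-2 protease, had the lowest level per kilobase of the set (15.9 in sham mice) and ran from 105 to 199 in sham mice and from 159 to 197 in ON-CR mice. Yy2 shares 28.4% of the exon length of Mbtps2 on the same strand. Stard4, which carries sterol between membranes and is a target of SREBP2, was at 362, 370.1 and 354 in sham mice and at 309, 288 and 319.8 in ON-CR mice. Its groups did not overlap, but the log2 difference of -0.24 (95% interval -0.54 to 0.06) did not pass the threshold.

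**Figure D3:**
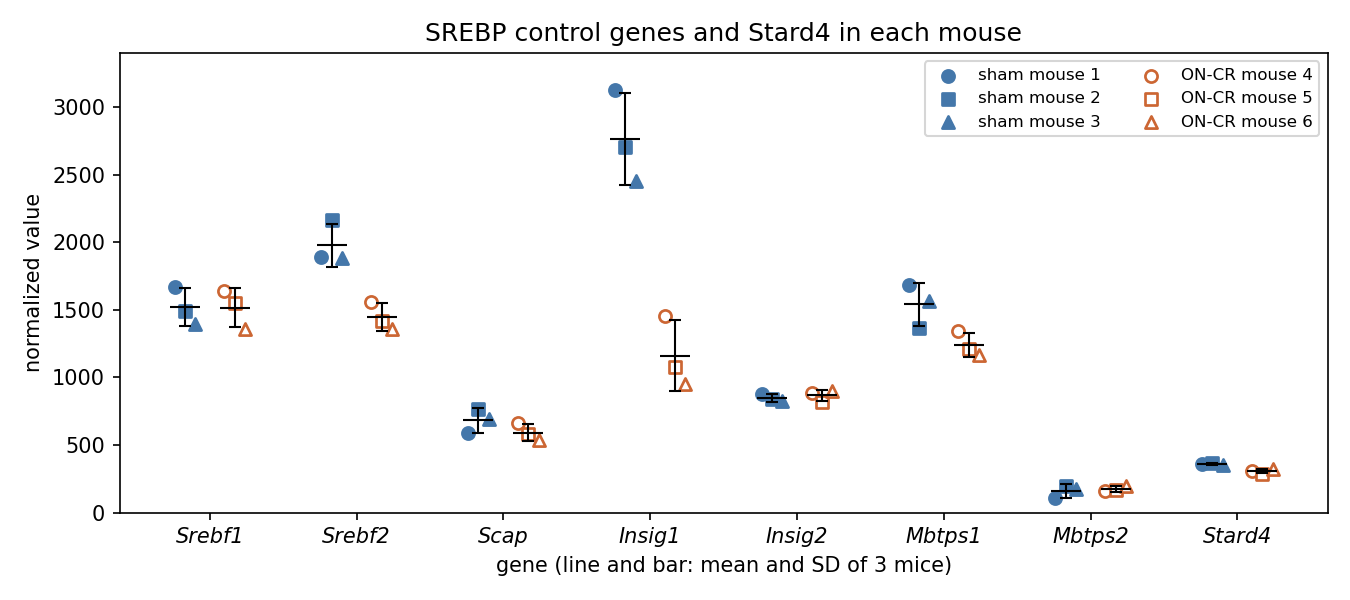
Normalized value (vertical axis) of the 7 SREBP control genes and Stard4 (horizontal axis) in each mouse, filled for sham and open for ON-CR, with the mean and SD of 3 mice as line and bar. Insig1 is the gene with widely separated groups, while the values of Insig2 and Srebf1 overlap.

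The mice of each group differed among themselves in these genes. Relative to the sham mean, the median log2 value of the 20 enzymes was 0.09 in sham mouse 1, 0.05 in mouse 2 and -0.16 in mouse 3. It was -0.84 in ON-CR mouse 4, -1.04 in mouse 5 and -1.02 in mouse 6. Sham mouse 3 had the lowest value of its group for 17 of 20 enzymes, ON-CR mouse 4 the highest of its group for 13, and ON-CR mouse 5 the lowest for 13. The median of all genes stayed between 0.00 and 0.04 in every library on the same scale. ON-CR mouse 6, which stood apart by its B cell transcripts, was thus not apart by these enzymes. The count of called genes rested in part on it, since without ON-CR mouse 6 the count was 9 in place of 14, with Mvk, Fdft1, Lss, Nsdhl and Insig1 no longer called, and the median over the 28 genes was then -0.82. The calls of Mvk and Nsdhl were also lost without sham mouse 1 or sham mouse 2, and that of Fdps without sham mouse 2.

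Markers of mature oligodendrocytes were lower to a like extent in the same libraries. All 14 markers on the list had a lower mean after ON-CR, and 9 of 14 were called lower, beside 1.13% of all genes. The median log2 difference of the 14 was -0.86, next to -0.96 for the 20 enzymes. Summed, the markers were at 1462200 to 2038800 in sham mice and at 744860 to 923920 in ON-CR mice, with mouse 5 the lowest. The geometric mean of the 20 enzymes was 1880.1, 1814 and 1549.7 in the sham libraries, against 1027, 896 and 904 in the ON-CR libraries. Divided by the geometric mean of the 14 markers in the same library, it was 0.0866, 0.0752 and 0.0847 in sham mice and 0.0762, 0.0894 and 0.0751 in ON-CR mice, so the ratios of the groups overlapped. The ratio to Mog alone overlapped as well, at 103 to 121 enzyme units per 1000 units of Mog in sham mice. ON-CR mouse 4 lay within that range at 108, mouse 5 above it at 136 and mouse 6 just under it. The ratio to Mbp, whose log2 difference was -1.42 beside -0.90 for Mog, did not overlap. It was 1.45 to 1.90 per 1000 units of Mbp in sham mice and 2.33 to 2.49 in ON-CR mice. The study reported optic gliomas in crushed nerves of this genotype at the same age, with more cells and a higher percentage of Olig2-positive cells. Those are counts of stained cells in sections, unlike the RNA values given here, and how the 2 relate was not tested.

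**Figure D4:**
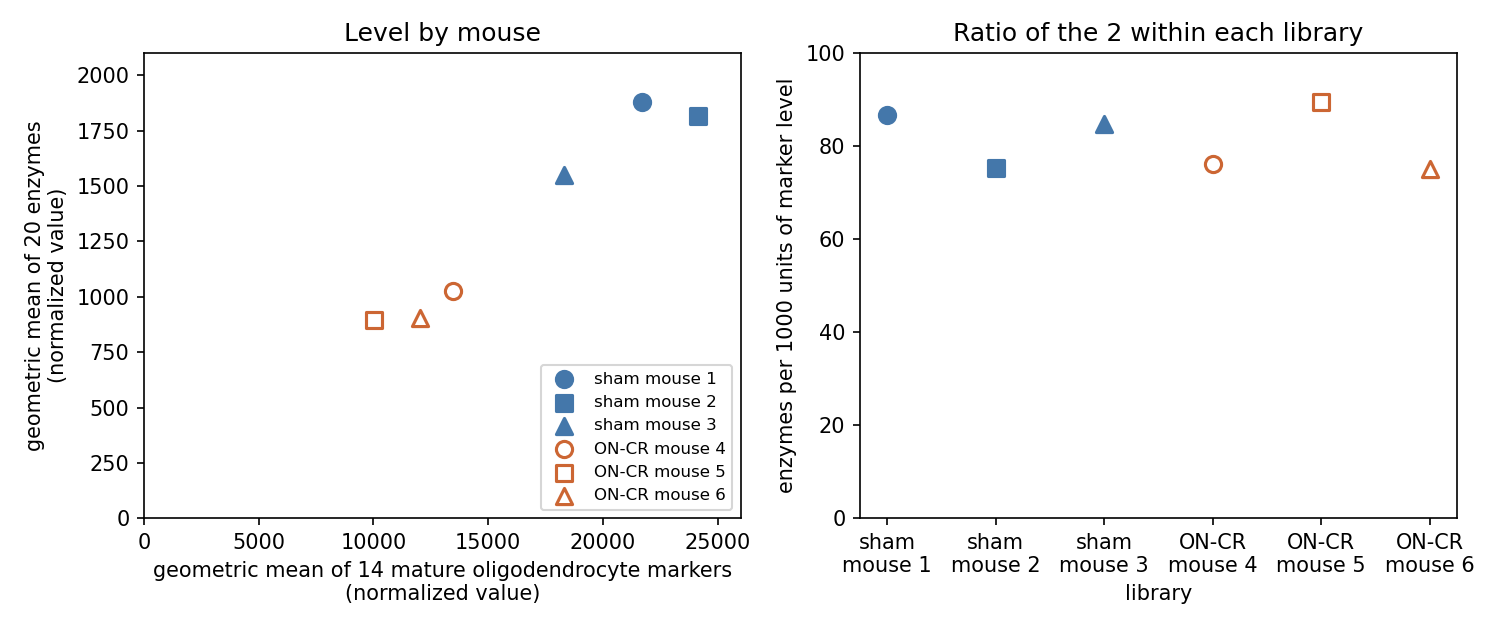
Left, geometric mean of the 20 enzymes (vertical axis) against that of the 14 mature oligodendrocyte markers (horizontal axis), both as normalized values, 1 symbol per mouse. Right, the enzymes per 1000 units of marker level in each library; ON-CR mice are lower on both axes at left, and at right they run from 75.1 to 89.4 beside 75.2 to 86.6 in sham mice.

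The genes differed among themselves in this ratio. Taken per unit of oligodendrocyte marker, 5 of the 28 genes were lower in ON-CR mice without overlap, namely Mvd, Idi1, Sqle, Cyp51 and Insig1, with log2 differences of the ratio from -0.51 for Cyp51 to -0.34 for Sqle. Without overlap, 12 were higher, among them Ggps1, Lbr, Hsd17b7, Ebp, Srebf1, Scap and Insig2, and 11 overlapped. Over all genes, the same ratio was lower without overlap for 0.501% and higher for 59.3%, since the markers in the denominator were themselves lower. Of the markers of other cells, 2 of 8 on the microglial and macrophage list were called higher, beside 0.971% of all genes. On every other list given here 0 were called. Astrocyte markers summed to 209250 to 258350 in sham mice and 280130 to 309330 in ON-CR mice. Gfap had the highest value of the 8 in every library, and 3 of the 8 had lower means after ON-CR, among them Aldoc at a log2 difference of -0.62. Microglial and macrophage markers summed to 15320 to 19675 and 19396 to 29403. Of these 8, 2 had lower means after ON-CR, P2ry12 at a log2 difference of -0.35 and Tmem119 at -0.27. The groups of Tmem119 did not overlap. Precursor and newly formed oligodendrocyte markers summed to 9566 to 9778 in sham mice and 7466 to 9185 in ON-CR mice. Of these 7, 4 were lower without overlap, beside 11% of all genes, and 0 were called. Fibroblast markers summed to 16678 to 20026 and 10670 to 16465, endothelial markers to 2944 to 3628 and 2770 to 3553, and mural cell markers to 1483.5 to 1952 and 1886 to 2578. Schwann cell markers summed to 7146 to 8568 in sham mice and 5423 to 7984 in ON-CR mice, nearly all from Pmp22, which other cells also express. The 2 adipocyte markers with a value, Plin1 and Adrb3, summed to at most 10.4, and each of the 2 was at 0 in some libraries. Skeletal muscle markers summed to 80.3 to 251, photoreceptor markers to 24.8 to 59.2 and red cell markers to 136970 to 509290 over all 6 libraries. Retinal ganglion cell markers summed to 3160 in ON-CR mouse 5 and to 706 to 1299 in the other libraries. The part that any of these cells has in the differences of the 28 genes was not tested.

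Genes around the pathway, on 6 lists that hold 65 genes of which 64 were measured, were tested in the same fit. Of these, 6 fell and 3 rose after ON-CR at an adjusted p at or under 0.05 by limma, beside 1.13% and 0.971% of all genes. The isoprenoid branches other than the route to sterols had 2 of 15 genes called lower. In all, 10 of the 15 had a lower mean log2 value after ON-CR. Fnta, the alpha subunit shared by the farnesyl and geranylgeranyl transferases, was at 1689, 2094 and 1509 in sham mice and at 719.9, 517 and 578 in ON-CR mice, with a log2 difference of -1.54 (standard error 0.16, adjusted p = 0.00216 by limma). Fntb, the other subunit of farnesyltransferase, averaged 1449 ± 420.3 (SD, n = 3) after sham surgery and 636 ± 162 after ON-CR (log2 difference -1.18, adjusted p = 0.0257 by limma), a call lost without any 1 of the sham mice or ON-CR mouse 6. Churc1 shares 6.45% of its exon length on the same strand. Pggt1b, which pairs with Fnta in the other enzyme, was at 615 in both groups with a log2 difference of 0.00 (adjusted p = 0.992 by limma).

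Of the 10 genes of acetyl-CoA supply and fatty acid synthesis on the SREBP1 list, 4 fell, beside 1.13% of all genes. On that list 0 rose, beside 0.971%, and all 10 had lower means. Acss2, which activates acetate, had a log2 difference of -0.97 (adjusted p = 0.00561 by limma) and the desaturase Scd1 one of -0.98 (adjusted p = 0.00816 by limma). The desaturase Fads1 had -0.62 (adjusted p = 0.0232 by limma), and Acly, which makes cytosolic acetyl-CoA from citrate, -0.54 (adjusted p = 0.0398 by limma). The median of the list was -0.56, beside -0.96 for the cholesterol enzymes. Leaving out 1 mouse at a time, Acly lost its call every time, Fads1 with any mouse left out other than ON-CR mouse 5, and Acss2 and Scd1 without sham mouse 2 or ON-CR mouse 6. With library size only, Acly and Fads1 were not called.

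The 3 genes that rose act on oxysterols or sterol esters. Ch25h, the cholesterol 25-hydroxylase, was at 29.5, 36.3 and 28.2 in sham mice and at 242, 109.8 and 139 in ON-CR mice, a log2 difference of 2.28 (standard error 0.32, adjusted p = 0.00661 by limma), which was no longer called without ON-CR mouse 6. Gm26902 overlaps 11.5% of its exon length on the other strand. Cyp7b1, the oxysterol 7-alpha-hydroxylase, went from 444 ± 29.7 to 706 ± 65.4 (log2 difference 0.67, adjusted p = 0.031 by limma). Nceh1, a cholesteryl ester hydrolase, went from 1252 ± 42.2 to 1778 ± 124 (log2 difference 0.50, adjusted p = 0.0447 by limma). The calls of Cyp7b1 and Nceh1 were lost with any mouse left out other than ON-CR mouse 5. Cyp46a1 had a log2 difference of -1.08 that did not pass (adjusted p = 0.0717 by limma). Among 13 genes of sterol-regulated degradation and SREBP escort, 0 passed in either direction with a median of -0.09, and among 4 electron donors of the sterol enzymes 0 passed, with Por at a log2 difference of 0.00. Of 18 genes of uptake, trafficking and esters, Nceh1 was the one that passed, and their median was -0.07.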

How the data were processed

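RNA was isolated from whole optic nerves, and libraries were made from 10 ng of total RNA with the SMARTer Ultra Low kit and sequenced on an Illumina HiSeq. Alignment and quantification by the authors used DRAGEN 3.9.3-8 and Ensembl release 101, assigned them to mm10 gene models of release 102 in Partek Flow 10.0 and applied median normalization. The deposited values are a normalized signal per gene, not whole counts, so limma 3.58.1 in R 4.3.3 replaced a count test. Values were fitted as log2(value + 1) with limma's trend option, and p-values were adjusted by Benjamini-Hochberg over all 25755 genes. A pseudocount of 1 understates differences of low genes. Reads were estimated from the value of 1 read in each library (0.885 to 1.06), and 65.1% to 67.7% of values were whole within 0.01 read, so no count model was run. The fit was also run on simulated counts with the same spread setting for every gene, unlike real libraries, and nothing is read from that run. Exon lengths and overlaps are from GENCODE M21 (GRCm38), for all 28 genes, and levels per kilobase divide the normalized value by exon length. The 28 genes and all lists were chosen with earlier results of these data known. Every one of the 28 genes is described; of the other pathway lists, those at an adjusted p of 0.05 or less are named, at most 4 per list, marker lists are given by counts and sums, and Pggt1b, Por and Cyp46a1 were named after their values were seen. The 250 bases upstream of RefSeq start sites were searched for motifs. Some genes of the pathway are not reported here. Alternatives were pseudocounts of 2 and 0.5, TMM, upper-quartile and library-size scaling, genes with a mean value of at least 10, a robust fit, sample quality weights, no trend, and leaving out each mouse. The labels give each library as a separate mouse; if mice were pooled, a replicate is a pool.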

Additional observations from a re-analysis of the deposited data

How the results depend on the processing

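No paired analysis was possible because the mice carry different numbers in the 2 groups. Over 15 alternative settings and 28 genes, 413 differences moved by less than 1 SD between mice and 7, all with library size only, moved by more; no called gene changed sign. Of the genes not called, Srebf1 changed sign in 6 settings and Mbtps2 in 1.

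With library size only, the median over the 28 genes was -0.72, 2 of them were higher without overlap in place of 0, and 421 genes of the whole table were called higher. Without a trend, limma called 0 of the 28 genes lower (19 at an unadjusted p at or under 0.05), 0 of the other pathway genes in either direction (17 lower and 3 higher unadjusted), and 2 lower and 5 higher of all genes; the cause was not tested. With a robust fit and with sample quality weights 11 other pathway genes were called lower, and with the weights 388 of all genes were called higher. Leaving out 1 mouse at a time, 9 to 15 of the 28 genes were called lower, 0 to 1 were higher without overlap, 28 to 365 of all genes were called lower and 39 to 489 higher, and 1 to 8 other pathway genes were called lower and 0 to 3 higher. With 3 libraries a group the precision is limited.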
